A study of Rattus norvegicus with 12 samples.

Results

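Glycine, threonine and glyoxylate are broken down in the liver by a small set of enzymes, and 8 of their genes were followed here: Gldc, Amt and Gcsh of the glycine cleavage system, Tdh and Gcat of threonine breakdown, the D-amino acid oxidase gene Dao, and the glyoxylate aminotransferase genes Agxt and Agxt2. They were chosen by name, through the RefSeq accession of each array probe, out of 16667 genes with a matched accession, and 9 probes represent them. The animals were male Wistar rats, adult, and each of 12 livers gave RNA for its own single-colour array. A control diet with 14% casein was fed to 6 of them and an isocaloric low protein diet with 5% casein to the other 6, over 4 weeks. No genotype, drug or other treatment is named for either group, and the arrays served to follow liver enzymes of metabolites that respond to protein undernutrition.

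The glycine cleavage system is a mitochondrial complex that splits glycine into carbon dioxide, ammonia and a methylene unit that is handed to tetrahydrofolate. Its P protein (Gldc) decarboxylates glycine, the lipoylated H protein (Gcsh) carries the remaining aminomethyl group, the T protein (Amt) releases ammonia from it, and the L protein (Dld), shared with other dehydrogenase complexes, reoxidises the carrier. Threonine dehydrogenase (Tdh) and 2-amino-3-ketobutyrate ligase (Gcat) turn threonine into glycine and acetyl-CoA. Glyoxylate, which otherwise becomes oxalate, is turned back into glycine by the alanine-glyoxylate aminotransferases Agxt and Agxt2.

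The probes of 7 of the 8 genes were well above background on all 12 arrays and were tested, and that of Tdh was not. Gcsh fell in the low protein rats and no gene of the group rose, at a limma adjusted p under 0.05 over 21858 genes. Of these, 11389 had a gene symbol, and the others are array target identifiers with no matched symbol, each counted here as a gene. By the same rule 3.05% of all genes were lower and 3.48% higher (6.53% in all), and against that share 1 call among 7 genes says nothing particular about the group. Of the 7 genes, 5 had a lower mean in low protein rats, beside 55.1% of all genes. Their median log2 difference was -0.21, beside -0.03 over all genes, and 3 of the 7 had an unadjusted p under 0.05, beside 21.6% of all genes. Expression values are log2 of the signal less the 75th percentile of the array, so 0 is the brightness of that percentile, and differences are low protein minus control.

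**Figure D1:**
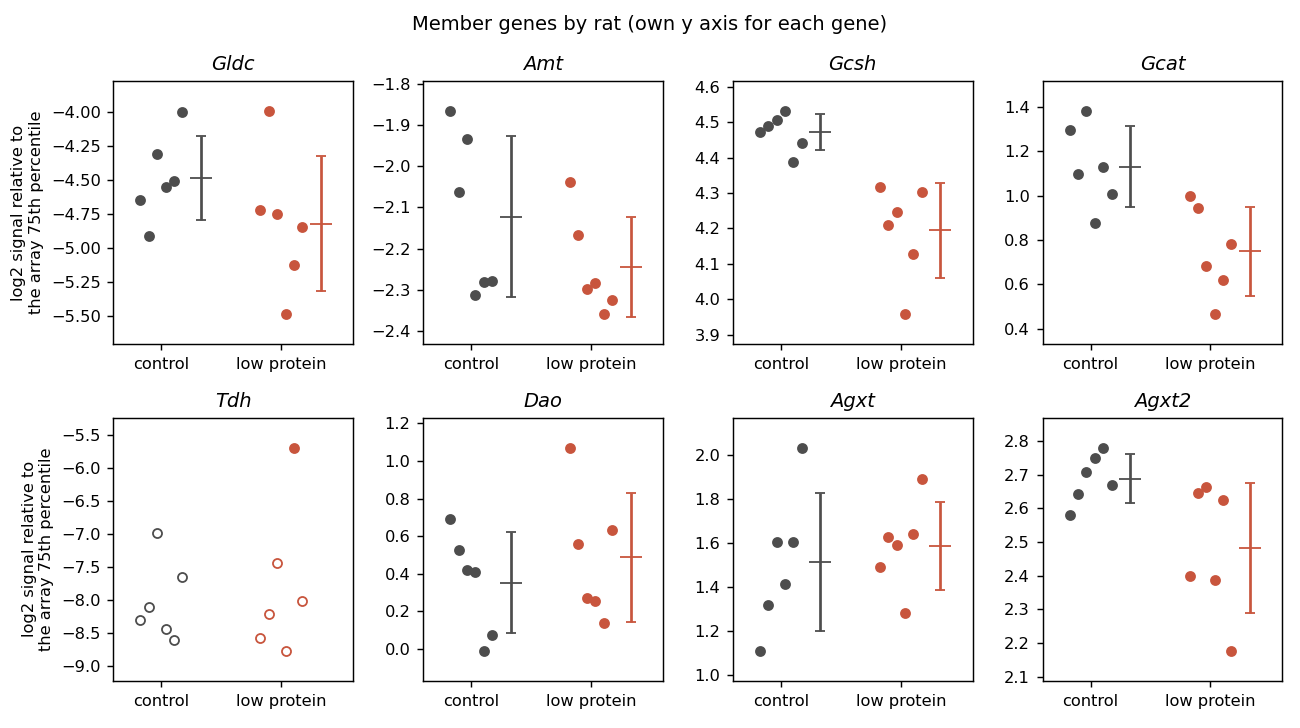
Each point is 1 rat and gives the log2 signal relative to the 75th percentile of its array, with a separate axis for each gene, and bars give the mean and SD of 6 rats. Filled points are well above background and open points are not. The 6 low protein values of Gcsh lie below the 6 control values, the other tested genes overlap between the diets, and Tdh was measured in 1 rat.

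The windows of 250 bases before the gene start are shown for the genes particular to the glycine cleavage system, since they encode parts of 1 enzyme and the comparison below turns on whether they moved together. The sequences are from RefSeq (GRCr8), all on the strand of the gene, with CCAAT, or its complement ATTGG, in capitals: the Gcsh window at chr19:61955608-61955857 (minus strand), the Gldc window at chr1:237375605-237375854 (minus strand) and the Amt window at chr8:117860187-117860436 (plus strand).
Gcsh: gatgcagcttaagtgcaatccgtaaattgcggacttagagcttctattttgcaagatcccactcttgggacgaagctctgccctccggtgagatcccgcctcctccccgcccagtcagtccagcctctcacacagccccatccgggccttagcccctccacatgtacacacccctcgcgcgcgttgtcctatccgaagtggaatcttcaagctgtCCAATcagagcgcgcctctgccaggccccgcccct
Gldc: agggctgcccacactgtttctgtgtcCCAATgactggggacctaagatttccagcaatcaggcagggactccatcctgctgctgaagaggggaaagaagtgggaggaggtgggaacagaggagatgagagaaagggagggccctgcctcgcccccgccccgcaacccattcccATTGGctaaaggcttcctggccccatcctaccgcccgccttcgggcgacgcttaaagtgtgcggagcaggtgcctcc
Amt: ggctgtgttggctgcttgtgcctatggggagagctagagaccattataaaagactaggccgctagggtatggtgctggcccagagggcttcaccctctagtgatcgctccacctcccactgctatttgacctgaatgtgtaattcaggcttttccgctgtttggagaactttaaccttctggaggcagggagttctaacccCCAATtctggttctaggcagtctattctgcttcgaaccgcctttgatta
Each of these windows held CCAAT on either strand, at 35 to 31 bases before the start in Gcsh, as did 34.0% of 33469 such windows in the table. Of the other members, the Gcat window and 1 of the 2 Agxt windows also held it, and those of Agxt2 and Dao did not. The amino acid response element TGATGNAAN, the sequence bound by ATF4 with C/EBP partners, was looked for on both strands, was in none of the 8 windows of the 7 genes with an entry, and was in 3.4% of all windows. The motif TGTTCT, part of the glucocorticoid receptor's element and also searched on both strands, was in the Gcat window and in 1 of the 2 Agxt windows, beside 17.5% of all windows. These matches describe letters in the sequence only, and no match overlapped one of another motif. The windows of Gcsh and Gcat held 15 and 16 CG pairs, and the first Agxt window and that of Agxt2 held 1 each. Those of Gldc, Amt and Dao held 9, 5 and 4, and the second Agxt window held 3. Over all windows the median was 5 and the upper quartile 15. The build named in the array files is another one, so the probes were not placed on these coordinates.

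In the glycine cleavage system, Gcsh, the lipoyl carrier, had a lowest, median and highest value of 4.39, 4.48 and 4.53 in control rats and of 3.96, 4.23 and 4.32 in low protein rats. All 6 low protein rats lay below every control rat, with a gap of 0.07 between the nearest values, and low protein rat 4 was lowest. Gcsh fell by 17.5%, a log2 difference of -0.28 ± 0.07 (SE, n = 6 rats per diet, 95% interval -0.43 to -0.12, adjusted p = 0.0396). Groups did not overlap in 4.99% of all genes. The call is close to the threshold: the difference was -0.30 to -0.23 when any 1 array was left out, but the adjusted p rose to between 0.0535 and 0.0898 for each array except low protein rats 1 and 6, without which it was 0.0417 and 0.0449.

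Gcsh was printed on each array as 10 spots of 1 probe and 2 spots of a second probe. The SD among the 10 spots of an array was 0.02 to 0.04, less than the SD among rats of 0.05 in controls and 0.13 in low protein rats. Taken spot by spot, all 10 were lower on average in low protein rats, by -0.31 to -0.25, and so were both spots of the second probe, at -0.29 and -0.26. The second probe had values of 4.20 to 4.42 in control and 3.84 to 4.22 in low protein rats, which overlapped by 0.02, with 5 of 6 low protein rats below every control rat. Its difference was -0.28 ± 0.08 (adjusted p = 0.0460 over 25688 probes, of which 3.22% were lower and 6.69% changed in either direction). The probes differ in the spots they use but share the RNA of the same rats, so they repeat the measurement and not the comparison.

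**Figure D2:**
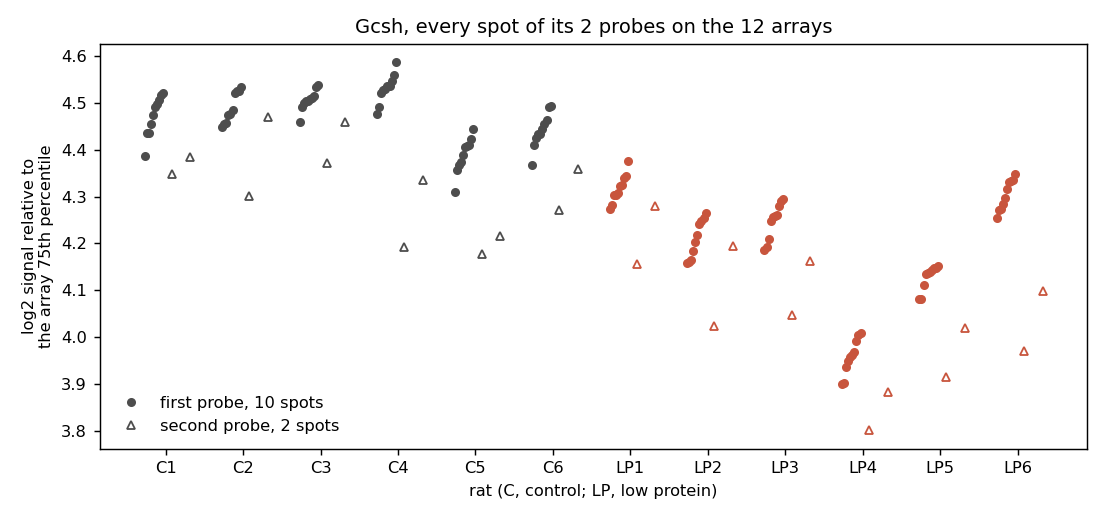
Log2 signal of Gcsh relative to the 75th percentile of the array for every spot of each rat, in ascending order within a rat; circles are the 10 spots of the first probe and triangles the 2 spots of the second. Spots of 1 array lie close together, and the circles of every low protein rat lie lower than those of the control rats on average.

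Gldc, the glycine decarboxylase, was read by 1 dim probe for a predicted transcript, with signals of 27.6 to 71.6 intensity units beside a 75th percentile of 942 to 1317 for the arrays. Its lowest, median and highest values were -4.91, -4.53 and -4.00 in control and -5.49, -4.80 and -3.99 in low protein rats. The groups overlapped through most of their range, and the highest value of all was in low protein rat 2. The difference of -0.33 ± 0.22 (adjusted p = 0.423) had an interval of -0.81 to 0.14. It was -0.17 with normexp background correction, -0.21 in the deposited median signals, -0.50 without low protein rat 2 and -0.20 without low protein rat 4. Whether the probe reads the main Gldc transcript of liver could not be checked without its sequence, which limits this difference and any ratio to Gldc.

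Amt, the aminomethyltransferase, ranged from -2.31 to -1.87 (median -2.17) in control and from -2.36 to -2.04 (median -2.29) in low protein rats. Its groups overlapped, and 2 low protein rats lay below the lowest control. The difference was -0.12 ± 0.10 (adjusted p = 0.523, interval -0.34 to 0.09). Dld, the L protein, differed by -0.01 ± 0.07 (adjusted p = 0.967).

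Whether Gcsh moved apart from its partners was tested on the log2 ratio of the genes within each array, with an exact two-sided permutation test over all 924 regroupings of the arrays. This test was added after the values were known, and its 3 p-values were adjusted together. The ratio of Gcsh to Dld was lower by -0.27 in low protein rats (p = 0.0216, adjusted p = 0.0649, exact permutation), and 3 of 6 rats lay below the control range. The ratio to Amt differed by -0.15 (exact permutation p = 0.139, adjusted p = 0.208) and that to Gldc by 0.06 (exact permutation p = 0.794). None passed after adjustment. With quantile normalization the ratios to Dld and to Amt were both at -0.28 and passed (adjusted exact permutation p = 0.0390 each). The ratio to Dld also passed without control rat 5 or without low protein rat 3 (adjusted exact permutation p = 0.0325 each). It was at -0.23 with normexp background correction and in the deposited median signals, and did not pass (adjusted exact permutation p = 0.169 and 0.175). With other arrays left out, its adjusted exact permutation p was up to 0.136.

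The other genes that serve the complex attach or build its lipoyl group. Of 6 measured genes of that list, which includes Dld, 2 rose and none fell, with a median of 0.02. Lipt1, the lipoyl transferase, had a median of -4.06 in control and -3.58 in low protein rats, the ranges of -4.14 to -3.96 and -3.87 to -3.31 did not overlap, and it rose by 0.48 ± 0.09 (adjusted p = 0.0071), or by 0.26 with normexp background correction (adjusted p = 0.0386). Nfu1, an iron-sulfur carrier that lipoate synthase depends on, went from 0.85 to 1.09 in control to 1.09 to 1.41 in low protein rats and rose by 0.31 ± 0.08 (adjusted p = 0.0377). The groups of Nfu1 did not overlap but all but touched. Its adjusted p missed the threshold (up to 0.0818) without control rat 1, 3, 5 or 6 or low protein rat 2, 5 or 6, and lipoate synthase Lias was at 0.04 (adjusted p = 0.836).

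Among the tested members, threonine breakdown was represented by Gcat alone. Its lowest, median and highest values were 0.88, 1.11 and 1.38 in control and 0.47, 0.73 and 1.00 in low protein rats. The groups overlapped by 0.12, with 4 of 6 low protein rats below every control and low protein rat 4 again lowest. The difference of -0.38 ± 0.11, a change of -23.3%, had an interval of -0.62 to -0.14 and did not pass (adjusted p = 0.0606). Its adjusted p was 0.0474 when low protein rat 1 was left out (-0.43), 0.0395 when arrays were quantile normalized (-0.40) and 0.0381 with a trended, robust spread estimate, but 0.231 without scaling between arrays (-0.25) and 0.159 without the filter on dim probes.

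Tdh was not well above background in any control rat, at signals of 2.85 to 7.80 intensity units. In low protein rats 5 arrays gave 2.48 to 6.41 units, also not well above background, and low protein rat 5 gave 23.8 units. The lowest signal that was well above background lay between 6.29 and 10.4 units on the arrays. With a measured level in 1 rat, no fold is given for Tdh, and its mRNA was not detectable by this probe in the other 11 rats.

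Of other genes that break down serine or share its intermediates, Sds and Sdsl fell, with none of 4 rising. Sds, serine dehydratase, which also acts on threonine, ranged from -0.56 to 4.10 in control and from -5.45 to -2.56 in low protein rats, without overlap, and was 36.5-fold lower (log2 difference -5.19 ± 0.74, adjusted p = 0.0019). Its size moved with the setting, to -4.35 with normexp background correction, -6.01 on slide 1, -3.54 on slide 2 (adjusted p = 0.238 there) and -4.59 without control rat 6. The median of Sds in low protein rats was -4.36, near the dim values of Gldc, so the size of the fold is uncertain. Sdsl, its relative, was at 1.17 to 1.59 and 0.64 to 1.05, and fell by 0.41 on the log2 scale (SE 0.09, adjusted p = 0.0221). Its call was lost without scaling between arrays (-0.28, adjusted p = 0.258).

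Dao, which oxidises D-amino acids in peroxisomes and also acts on glycine, ranged from -0.01 to 0.69 (median 0.41) in control and from 0.14 to 1.07 (median 0.41) in low protein rats. The medians were alike and the ranges overlapped, with low protein rat 1 above every control. The difference was 0.14 ± 0.17 (adjusted p = 0.701, interval -0.23 to 0.50). On slides 1 and 2 taken alone it was 0.24 and -0.08.

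Agxt, the alanine-glyoxylate aminotransferase that is deficient in primary hyperoxaluria, ranged from 1.11 to 2.03 (median 1.51) in control and from 1.28 to 1.89 (median 1.61) in low protein rats. Every low protein value lay inside the control range. The difference of 0.07 ± 0.14 (adjusted p = 0.829) had an interval of -0.24 to 0.39, and it was -0.09 on slide 1 and 0.40 on slide 2.

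Agxt2, the mitochondrial aminotransferase that also degrades beta-aminoisobutyrate and dimethylarginine, had a lowest, median and highest value of 2.58, 2.69 and 2.78 in control and of 2.18, 2.51 and 2.66 in low protein rats. All 6 low protein rats lay below the control median, 3 of them below every control, while the other 3 lay within the control range. The difference was -0.21 ± 0.09 with an interval of -0.40 to -0.01, and it did not pass (adjusted p = 0.207). Without scaling between arrays it was -0.074 (adjusted p = 0.836). The intervals of Agxt2 and Agxt overlap, and the difference between them was not tested.

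**Figure D3:**
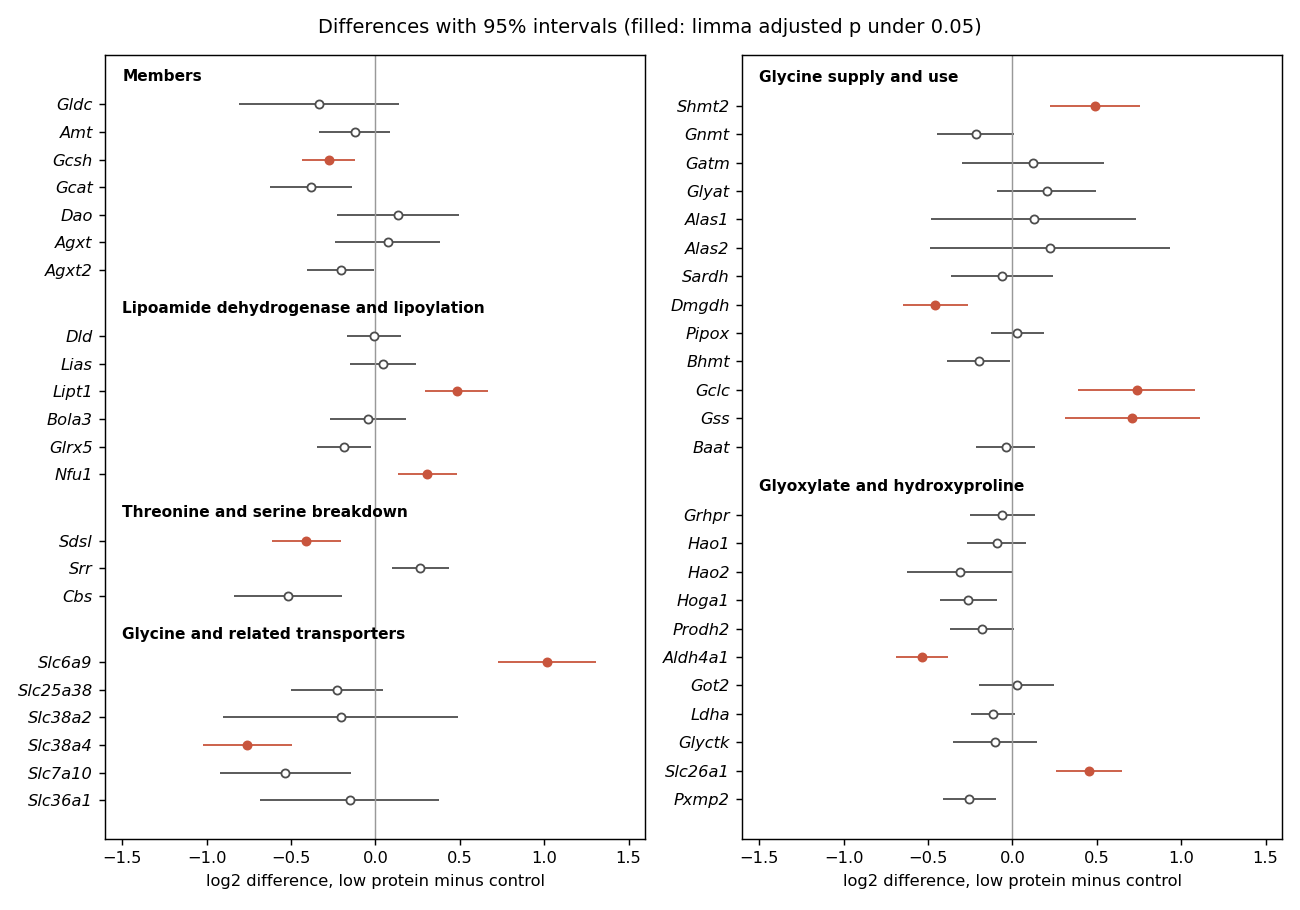
Log2 differences, low protein minus control, with 95% intervals from limma for the members and for other genes of their pathways, grouped by list. Filled red points have an adjusted p under 0.05 over all genes. Sds is left off this scale at -5.19. The D-amino acid list and the peroxisome list, which includes Uox, are not drawn. Gcsh is the only filled member, and calls in the other lists lie on both sides of 0.

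Beyond the members, 67 genes of the lists for these pathways, for peroxisomes and for glycine transport were looked up, and 61 were measured. Of these, 7 rose and 6 fell, 21.3% beside 6.53% of all genes, with a median difference of -0.10. These lists were drawn up with earlier results on these rats known, and several of their genes had been described from them, so this share is a description.

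Among 13 genes that supply or use glycine, 3 rose and 1 fell, with a median of 0.12. Shmt2, which makes glycine from serine in mitochondria, ranged from 1.78 to 2.41 in control and 2.34 to 2.94 in low protein rats and rose by 0.49 ± 0.12 (adjusted p = 0.0344). Gclc and Gss, the enzymes of glutathione synthesis, rose by 0.74 ± 0.16 (adjusted p = 0.0173) and 0.71 ± 0.18 (adjusted p = 0.0383), and Dmgdh, which makes sarcosine from dimethylglycine, fell by 0.46 on the log2 scale (SE 0.09). The groups overlapped for Shmt2 and Gss and not for Gclc and Dmgdh. Shmt2 missed the threshold without control rat 3, 4, 5 or 6 or low protein rat 1, 2, 4 or 5 (adjusted p = 0.0511 to 0.0735), and Gss missed it without any array but control rat 1 and low protein rats 3 and 5 (adjusted p = 0.0624 to 0.0811). Gclc was at 0.93 on slide 1 and 0.35 on slide 2, and Dmgdh did not pass without scaling between arrays (-0.33, adjusted p = 0.187). Glycine N-methyltransferase Gnmt was at -0.22 ± 0.10 (adjusted p = 0.247).

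Among 6 measured glycine and related transporters, Slc6a9 rose and Slc38a4 fell, with a median of -0.22. Slc6a9, the glycine transporter GlyT1, had a lowest, median and highest value of -1.44, -1.17 and -0.78 in control and of -0.41, -0.08 and 0.27 in low protein rats. The groups did not overlap, the level was 2.02-fold higher (log2 difference 1.02 ± 0.13, adjusted p = 0.0011), and the slides gave 1.04 and 0.97. Slc38a4, a carrier of neutral amino acids, had a lowest, median and highest value of 4.39, 4.72 and 5.13 in control and of 3.67, 3.96 and 4.27 in low protein rats. It fell without overlap, with a log2 difference of -0.76 ± 0.12 (adjusted p = 0.0038). The carrier of glycine into mitochondria, Slc25a38, was at -0.23 ± 0.13 (adjusted p = 0.328).

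Of 11 measured genes of glyoxylate, glycolate and hydroxyproline handling, Slc26a1 rose and Aldh4a1 fell, and the list's median was -0.12. Slc26a1, a sulfate and oxalate exchanger, ranged from 3.26 to 3.75 in control and from 3.84 to 4.11 in low protein rats and rose by 0.45 ± 0.09 (adjusted p = 0.0113). Aldh4a1, which acts in proline and hydroxyproline breakdown, fell by 0.53 on the log2 scale (SE 0.07, adjusted p = 0.0012), and neither gene's groups overlapped. Without scaling Aldh4a1 did not pass (-0.40, adjusted p = 0.0736). The enzymes that make or remove glyoxylate beside Agxt did not pass, with Hao1, glycolate oxidase, at -0.09, Grhpr, glyoxylate reductase, at -0.06 and Hoga1, the last enzyme of hydroxyproline breakdown, at -0.26 (adjusted p = 0.0684).

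With the filter on dim probes left off, the calls of Nfu1, Shmt2, Gclc, Gss and Sdsl were lost (adjusted p = 0.0511 to 0.123), and that of Nfu1 also without scaling (0.44, adjusted p = 0.121), with normexp background correction (0.28, adjusted p = 0.0559) and in the deposited median signals (0.28, adjusted p = 0.0658). On slide 1 alone 1 gene of the lists passed and on slide 2 alone 0.

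The genes whose values over the 12 arrays lay nearest to those of Gcsh, each gene centred on its own mean, were Pxmp2, a peroxisomal membrane protein that is also in the glyoxylate list, Ceacam15l1 and Ndufa2, a subunit of respiratory complex I. Their root mean square log2 difference from Gcsh was 0.05, 0.06 and 0.06, beside 0.17 for Gcsh about its own mean, and their differences between the diets were -0.26, -0.31 and -0.24. These genes were picked by their values in both diets, so a difference near that of Gcsh follows from the choice. Only Ceacam15l1 passed limma's test (adjusted p = 0.0207), with Pxmp2 at 0.0531 and Ndufa2 at 0.0943. Among the 7 tested members, low protein rat 4 was the lowest of its group for 4 genes and low protein rat 1 the highest for 4.

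The call for Gcsh depended on the scaling between arrays and on the filter on dim probes, without which more genes were tested and its adjusted p was 0.133. Without scaling its difference was -0.14 (adjusted p = 0.574), and there the median of all genes stood 0.13 higher than with scaling and 76.2% of all calls were higher, beside 53.3%. Relative to the median of all genes Gcsh was at -0.25 with and without scaling. Scaling shifts all genes of an array by the same amount, so this likeness was fixed in advance and is no check of the call. The direction of Amt also rests on the scaling, at 0.0095 without it, and without it Gldc was at -0.20, Dao at 0.27 and Agxt at 0.20. Array slides 1 and 2, each a scan of its own, held 4 and 2 rats of each diet, and Gcsh was at -0.27 and -0.29 on them, past the threshold on neither (adjusted p = 0.253 and 0.582). With slide as a block the adjusted p of Gcsh was 0.0452. With rat number as a block instead, Gcsh did not pass and Gcat did. Within a slide, however, array position went with diet. Slide 1 carried its controls in row 1 and its low protein rats in row 2. Slide 2 used row 1 only, with controls at columns 1 and 2 and low protein rats at columns 3 and 4. A slide block does not remove this, and the part of position in differences as small as that of Gcsh was not tested.

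**Figure D4:**
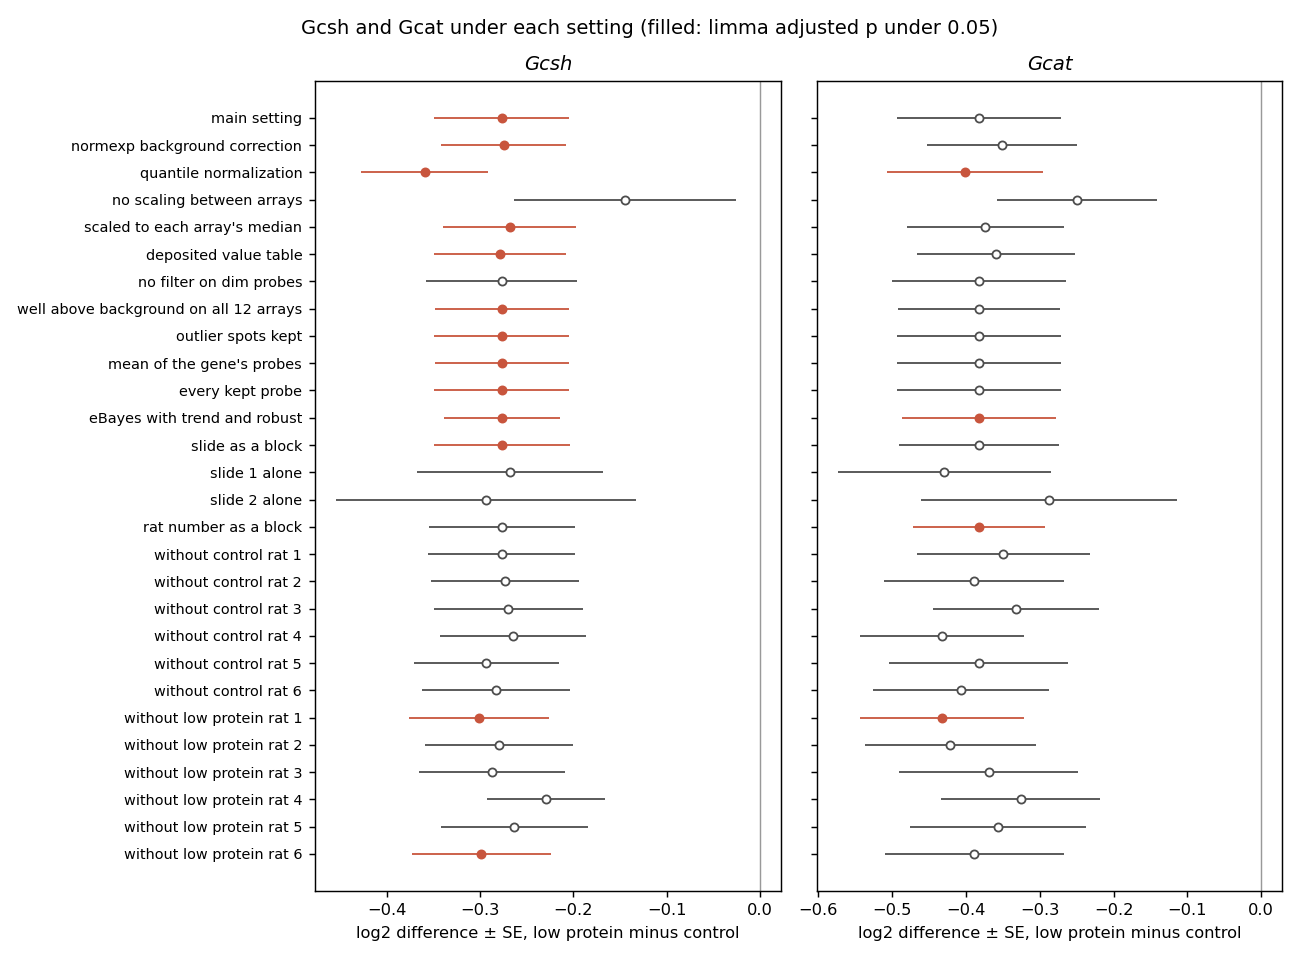
Log2 difference, low protein minus control, with its SE for Gcsh and Gcat under the main setting, 15 other settings and with each array left out; filled red points have a limma adjusted p under 0.05. All values lie below 0, and those of Gcsh pass or miss the threshold with small changes of the data.

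All 8 hepatocyte markers were measured, and their summed level, in multiples of each array's 75th percentile, was 788 to 910 in control and 674 to 864 in low protein rats; Apoa1 fell and the other 7 did not pass. In whole liver, fewer cells of a type and less RNA per cell cannot be told apart. All 6 Kupffer cell markers had lower means and none passed, with summed levels of 12.5 to 26.2 and 12.6 to 18.6. Of 9 periportal hepatocyte genes 5 fell, Sds among them, with summed levels of 170 to 237 and 123 to 148, and of 9 pericentral genes, 8 measured, Oat fell. The part of these shifts in the fall of Gcsh was not tested. Kidney, which also expresses Dao and Agxt2, was represented by 2 of 6 markers above background, with summed levels of 0.057 to 0.080 in control and 0.054 to 0.078 in low protein rats.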

How the data were processed

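Cy3-labelled liver RNA from 12 rats was put on Agilent arrays, per the labels' protocols. The deposited intensity values come from Feature Extraction 12.0.3.1, which subtracted background within each array and did no scaling between arrays, per the file headers. The deposited value table equals the median spot intensity. Of 58717 spots that were not controls, between 453 and 739 on an array were left out for an outlier mark, and 61.2% to 69.9% were well above background; the number of arrays limits the precision. Spots of a probe were averaged. A probe was kept if 5 or more of the 6 arrays of either diet read it well above background, and the brightest probe of a gene over all arrays was tested. A filter on brightness removes noisy spots, and dim probes have compressed or uncertain folds. Probes were named through RefSeq accessions in a gene table (GRCr8), which named 21215 of 45598 probes (46.5%).

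Diets were compared by limma's two-sided moderated test (version 3.58.1, R 4.3.3) with Benjamini-Hochberg adjustment over 21858 genes, at an adjusted p under 0.05; the script was tested on simulated data. Named genes are the members, per list up to 4 that passed with the smallest adjusted p, or 2 with the smallest p, and the 3 nearest to a member that passed; other genes named beside a list were chosen after their values were seen. The members and lists were chosen with earlier results of these data known. Nothing in the labels says that a rat number links the diets. Same-numbered rats deviated together with weak but positive correlations of 0.03 to 0.26, which do not settle whether they were linked. Since the labels name no link, they were not treated as pairs in the main test. Rat number as a block was an alternative setting, under which Gcsh did not pass and Gcat did. Figures were drawn with matplotlib 3.10.9. Protein and probe sequences, metabolites and PCR data were not used here.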

Additional observations from a re-analysis of the deposited data

Results flagged for a closer look

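The genes below each had 1 rat far from the other 5 of its diet, among 48 groups of 6 examined, and chance alone marks about 1 group in 20. Gss was at -0.37 in control rat 1, with the next control rat at -0.77 and the lowest at -0.99. Sdsl was at 0.64 in low protein rat 4, with the next at 0.92 and the highest at 1.05. No group of a member gene stood out in this way.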

How the results depend on the processing

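All 7 tested members kept their direction in most settings. Quantile normalization gave 2 lower members (Gcat at -0.40) and 13 lower pathway genes, with ratios of Gcsh of -0.28 to Dld, -0.28 to Amt (both passing) and -0.033 to Gldc. Without scaling Gcsh was at -0.14 and Amt at 0.0095, with 0 lower members, 2 lower pathway genes and 212 lower genes in all (680 higher, 76.2%, beside 53.3%). Without the filter on dim probes 39002 genes or identifiers without a symbol were tested, 326 rose and 292 fell, Gcsh (-0.28) had an adjusted p of 0.133, 0 members fell and 3 pathway genes rose. A trended, robust spread called 2 members lower (Gcat at -0.38) and 10 pathway genes lower. On slide 1 alone 82 genes rose and 82 fell, with 0 lower members, 0 higher and 1 lower pathway genes, Gcsh at -0.27 and Agxt at -0.091; on slide 2 alone 11 rose and 1 fell, with 0 lower members, 0 higher and 0 lower pathway genes, Gcsh at -0.29 and Dao at -0.080. At an adjusted p under 0.01, 244 genes rose and 194 fell, with 0 lower members (Gcsh at -0.28) and 2 higher pathway genes. With rat number as a replicate block Gcsh was at -0.28 (adjusted p = 0.0832) and Gcat at -0.38 (adjusted p = 0.0485), so 1 member was called, Gcat in place of Gcsh. The labels name no pairing, and 2 of 6 control rats correlated best with the low protein rat of their own number. The ratio of Gcsh to Gldc turned to -0.11 with normexp on the median signal, used since the files hold no mean signal, and to -0.072 in the deposited values.

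With each array left out in turn, the count of lower members was 0 to 2 and of higher members 0 to 0. Over all genes 442 to 739 rose and 414 to 704 fell, the fewest without control rat 3, and 4 to 8 pathway genes rose and 5 to 7 fell. Differences were -0.0083 to 0.18 for Agxt, -0.24 to -0.15 for Agxt2, -0.16 to -0.07 for Amt, 0.02 to 0.21 for Dao, -0.43 to -0.33 for Gcat, -0.30 to -0.23 for Gcsh and -0.50 to -0.20 for Gldc. The ratio of Gcsh was -0.32 to -0.20 against Dld, -0.21 to -0.10 against Amt and -0.046 to 0.22 against Gldc. The cause of these changes was not tested. Dim signal limits Gldc, Tdh and Lipt1, and Sds in low protein rats.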

Other observations

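Of 12 genes that handle D-amino acids, beta-aminoisobutyrate and dimethylarginine, beside Dao and Agxt2, none passed limma's test. Ddah1, which breaks down dimethylarginine, was at 0.94 ± 0.27 (adjusted p = 0.0572), with low protein values of 2.99 to 3.64 and control values of 1.55 to 3.43, the highest in control rat 1. Without that rat it passed (1.17, adjusted p = 0.0065), as it did under 6 other settings (adjusted p = 0.0334 to 0.0495). Upb1, which makes beta-alanine and beta-aminoisobutyrate from pyrimidines, was at -0.27 ± 0.08 (adjusted p = 0.063) and passed without control rat 6 (-0.31, adjusted p = 0.0359), when arrays were quantile normalized (adjusted p = 0.0143) and with a trended, robust spread (adjusted p = 0.0288), but was at -0.14 without scaling (adjusted p = 0.586) and had an adjusted p of 0.182 without the filter on dim probes. Of 10 peroxisome genes, 1 fell, Uox, urate oxidase (-0.41 ± 0.11, adjusted p = 0.0377), and catalase was at -0.43 ± 0.20 (adjusted p = 0.242). Uox missed the threshold without scaling (-0.28, adjusted p = 0.273), with scaling to the array median (adjusted p = 0.0548), without the filter on dim probes (adjusted p = 0.110) and without control rat 2, 3, 5 or 6 or low protein rat 1, 4, 5 or 6 (adjusted p = 0.0668 to 0.0862).

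Of the other marker lists, 5 cholangiocyte, 5 endothelial, 6 stellate, 2 neutrophil and 3 pancreas genes were measured and none passed. Of 3 measured lymphocyte genes, Ptprc, a marker of all leukocytes, fell by 0.43 on the log2 scale (adjusted p = 0.0291), with summed levels of 0.281 to 0.413 in control and 0.245 to 0.399 in low protein rats.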
